A study of Homo sapiens with 12 samples.

Results

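Nuclear receptors other than the oestrogen receptor (ER) and the progesterone receptor (PR) were examined as a set of 9 genes chosen by symbol, out of 60612 named rows in the count table. They are NR3C1, RARA, RARG, RXRA, RXRB, VDR, THRA, NR2F2 and NR2F6. All 9 had a row, and 8 carried enough reads to be tested. The exception was NR2F2.

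The cells were CAMA-1, an established ER-positive human breast cancer line with the wild-type genotype label. The 4 groups were vehicle (DMSO), 100 nM abemaciclib, which inhibits CDK4 and CDK6, 5 nM fulvestrant, which degrades ER, and a combination of both drugs at doses not restated in the labels. Each group held 3 libraries, which the series describes as biological replicates of this 1 line, so that p values measure the spread between these cultures. Reads were counted per gene from the 3′ ends of polyadenylated transcripts. Levels are given as CPM (reads per gene scaled to a common effective library total). That total is the reads of the tested genes times a TMM factor, which allows for library composition. The factors ran from 0.95 to 1.04, and each value is relative to the effective total of its library.

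Nuclear receptors are transcription factors, most of which are switched on by a small lipid-soluble ligand. The glucocorticoid receptor binds DNA mainly as a homodimer, after chaperones of the HSP90 machinery have held it ready for its hormone. Receptors for retinoic acid, vitamin D and thyroid hormone instead pair with a retinoid X receptor (RXR), so that the RXR proteins are partners shared between several pathways. The COUP family members NR2F2 and NR2F6 are orphan receptors that often act as repressors. In breast epithelium, several of these receptors bind chromatin in the same regions as ER.

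Library totals ran from 3299119 to 5164667 counts. The closest library to each of the 12 was 1 of its own group. Fulvestrant replicate 3 stood apart from its group, with a chi-square per degree of freedom of 9.72 and 15.3 against the other fulvestrant libraries, compared with 1.87 to 5.59 for the other 10 replicate pairs. Results that rested on it are given with and without it. The luminal markers were all present, the lowest group mean in DMSO being 62.7 CPM (CDH1) and the highest 3019 CPM (GATA3). As a check of the treatments, MKI67, a proliferation marker, averaged 511 CPM in DMSO, 54.2 with abemaciclib, 43.8 with fulvestrant and 2.21 in the combination. The ER targets TFF1 and PGR averaged 60.5 and 14.5 CPM in DMSO, and 1.46 and 0.593 CPM with fulvestrant. Their means were 381.5 and 25.9 CPM with abemaciclib, and 2.32 and 1.77 CPM in the combination. ESR1, the gene of ER itself, averaged 93.3, 103, 95.3 and 81.5 CPM in DMSO, abemaciclib, fulvestrant and the combination, and did not pass against DMSO in any of them. MKI67 thus differed between the cultures compared, and its part in the receptor values was not tested.

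**Figure D1:**
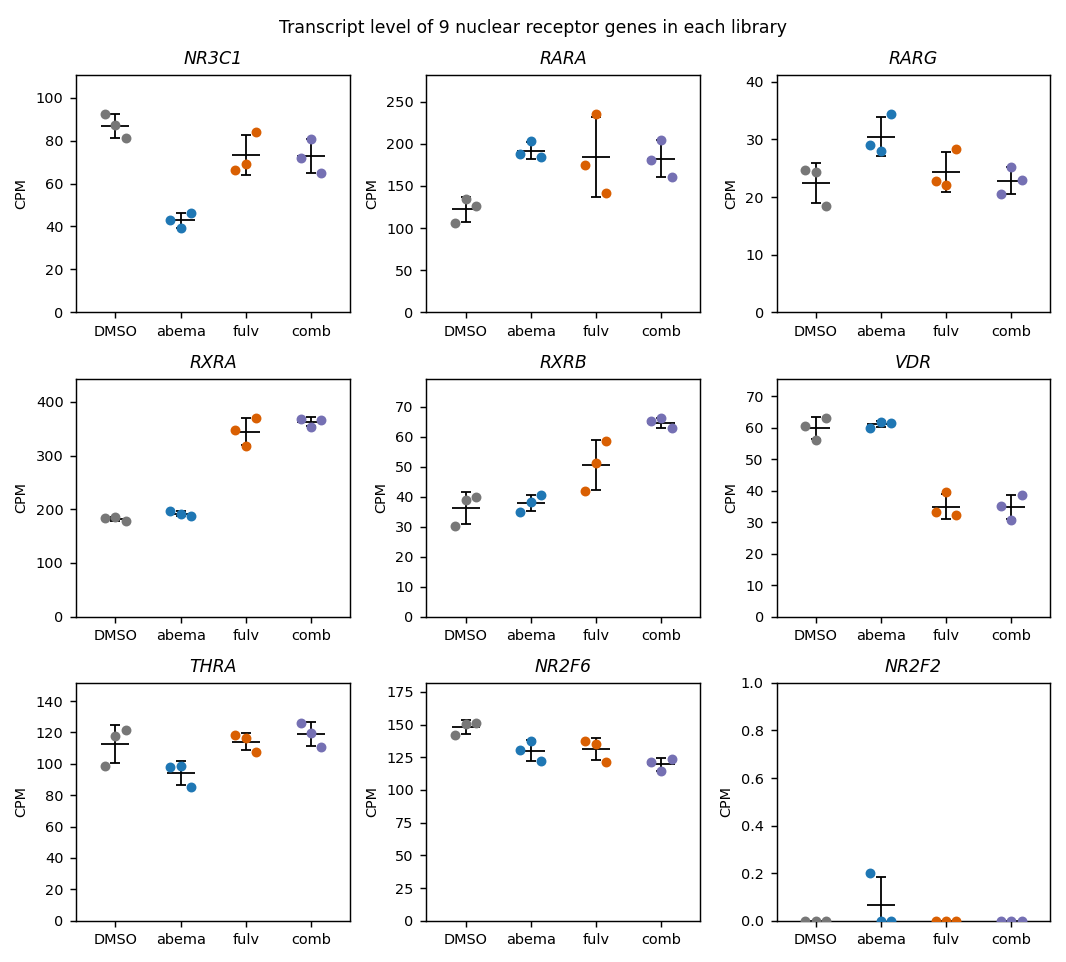
Transcript level of each of the 9 genes in CPM (vertical axes, linear and starting at 0) in the 4 groups (horizontal axes: DMSO, abemaciclib, fulvestrant, combination). Points are single libraries in replicate order and black bars are the mean ± SD of 3. NR3C1 is lowest in the abemaciclib libraries (39.5 to 46.5 CPM), RXRA is high and VDR low in both groups that received fulvestrant, and NR2F2 is at 0 in all but 1 library.

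Under abemaciclib alone, the glucocorticoid receptor fell, both retinoic acid receptors rose and the RXR genes and VDR did not pass the test. Of the 8 receptors tested against DMSO, 2 were higher (RARA and RARG) and 2 lower (NR3C1 and THRA) by edgeR's quasi-likelihood test at an adjusted p under 0.05. Among all 11803 genes tested, 20.5% were higher and 20.7% lower. The median absolute log2 change of the 8 receptors was 0.23, against 0.34 for all genes.

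Fulvestrant gave another pattern, in which the RXR genes were higher and VDR lower. Of the 8 receptors, 3 were higher (RARA, RXRA and RXRB) and 1 lower (VDR), beside 25.3% higher and 25.7% lower among all genes. In the combination 3 were higher (RARA, RXRA and RXRB) and 3 lower (NR3C1, VDR and NR2F6), beside 27.7% and 27.5%. Median absolute changes were 0.36 for the receptors under fulvestrant and 0.44 in the combination, and 0.43 and 0.46 for all genes. The comparisons with DMSO share the same 3 control libraries.

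**Figure D2:**
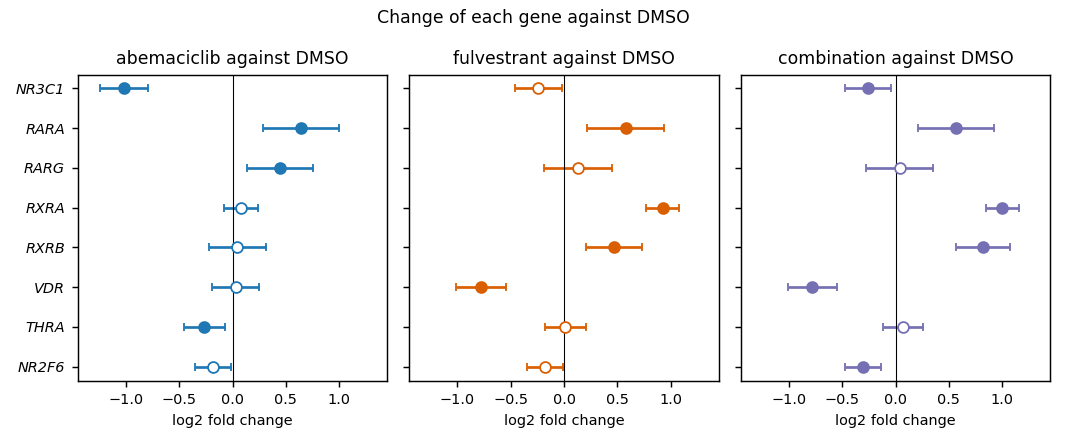
Log2 fold change against DMSO (horizontal axes) of the 8 tested receptors under abemaciclib, fulvestrant and the combination. Points are estimates from edgeR with 95% intervals, and filled points passed an adjusted p of 0.05. The filled points under abemaciclib are NR3C1, RARA, RARG and THRA, whereas RXRA, RXRB and VDR are filled where fulvestrant was present.

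NR3C1 encodes the glucocorticoid receptor and lies on chromosome 5 (GRCh38, 143277931 to 143435512, minus strand). Its level was 92.3, 87.4 and 81.0 CPM in the DMSO libraries, and 42.8, 39.5 and 46.5 CPM with abemaciclib. With fulvestrant it was 66.5, 69.1 and 83.9 CPM, and in the combination 71.9, 80.9 and 65.1 CPM. All abemaciclib libraries lay below every other library. The fulvestrant libraries overlapped those of DMSO and of the combination.

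The fall of NR3C1 under abemaciclib, from 86.9 ± 5.66 to 42.9 ± 3.49 CPM (SD, n = 3), was a log2 change of -1.02 ± 0.11 (SE, edgeR adjusted p 2.88e-08). In RNA from whole cultures, fewer cells carrying a transcript and less transcript per cell cannot be told apart. Fulvestrant alone left NR3C1 at 73.1 ± 9.38 CPM, a change of -0.24 ± 0.11 that missed the threshold (adjusted p 0.0596). Without fulvestrant replicate 3, the highest of the 3, the value was -0.36 (adjusted p 0.00621). The combination stood at 72.6 ± 7.92 CPM, or -0.26 ± 0.11 against DMSO (adjusted p 0.0408). That call was lost in 9 of 18 alternatives, among them DESeq2 (adjusted p 0.0583) and leaving out DMSO replicate 1 (-0.22, adjusted p 0.123), DMSO replicate 2 (-0.25, adjusted p 0.0962), abemaciclib replicate 1 (-0.26, adjusted p 0.0511), combination replicate 1 (-0.24, adjusted p 0.0945) or combination replicate 3 (-0.18, adjusted p 0.211).

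NR3C1 was the receptor whose response to abemaciclib differed past the threshold with fulvestrant present. The combination was 0.76 ± 0.11 higher than abemaciclib alone on the log2 scale (adjusted p 5.1e-06), and -0.01 ± 0.11 from fulvestrant alone (adjusted p 0.978, 95% interval -0.24 to 0.21). The interaction, which is the change on adding abemaciclib in the presence of fulvestrant minus that in its absence, was 1.00 ± 0.15 (adjusted p 2.91e-05). It passed in 17 of 17 alternatives, from 0.91 to 1.11. Across the 8 receptors, 1 interaction was positive and 0 were negative past the threshold, beside 9.49% positive and 11.6% negative among all genes. At an unadjusted p under 0.05 edgeR gave 2 positive (NR3C1 and THRA) and 2 negative (RARA and RARG), and DESeq2 called 1 of each. By group mean the order was DMSO, fulvestrant, combination and abemaciclib, in which DMSO and fulvestrant, and fulvestrant and the combination, did not differ past the threshold.

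**Figure D3:**
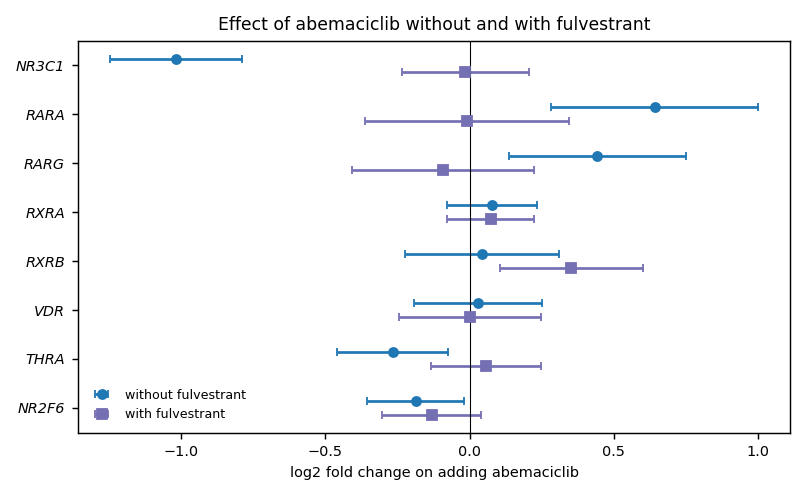
Log2 fold change on adding abemaciclib (horizontal axis), without fulvestrant (circles, abemaciclib against DMSO) and with it (squares, combination against fulvestrant), for 8 receptors with 95% intervals. For NR3C1 the values are -1.02 and -0.01, and its intervals do not meet. For RXRA the values are 0.08 and 0.07.

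Of the chaperones and co-chaperones of the glucocorticoid receptor, 15 were tested. Among them 3 were higher and 7 lower with abemaciclib, 3 and 12 with fulvestrant, and 2 and 11 in the combination. The lower ones made up 46.7%, 80.0% and 73.3% of the list, beside 20.7%, 25.7% and 27.5% of all genes. The list, like the others below, was chosen with earlier results of these data known. It was not matched to all genes for read number. HSP90AA1, the inducible HSP90 isoform, averaged 4827 ± 162 CPM in DMSO, 3134 ± 92.5 with abemaciclib (-0.62 ± 0.07, adjusted p 3.75e-08) and 2298 ± 119 with fulvestrant (-1.07 ± 0.07, adjusted p 5.16e-13). Not every member fell with abemaciclib. HSP90AB1, another HSP90 isoform, averaged 4895 CPM in DMSO, 4771 with abemaciclib and 3269 with fulvestrant. HSPA8, HSPA1A and BAG1 averaged 128, 694 and 123 CPM in DMSO, and 169, 908 and 172 CPM with abemaciclib. HSP90AB1, HSPA8, HSPA1A and BAG1 were singled out after their values were seen. PTGES3, the p23 co-chaperone, fell by 0.69 ± 0.08 with abemaciclib (adjusted p 2.27e-08) and by 0.69 ± 0.08 with fulvestrant (adjusted p 1.3e-08). The phosphatase PPP5C fell by 0.60 ± 0.13 with abemaciclib (adjusted p 0.000335) and by 0.64 ± 0.13 with fulvestrant (adjusted p 0.000131). FKBP4, an immunophilin of the receptor complex, fell by 1.15 ± 0.08 with fulvestrant (adjusted p 5.78e-12), and the HSP40 protein DNAJA1 by 0.83 ± 0.09 (adjusted p 4.19e-09). With abemaciclib FKBP4 fell by 0.40 ± 0.08 (adjusted p 0.000207) and DNAJA1 by 0.35 ± 0.08 (adjusted p 0.00108). The list's median log2 change was -0.22, -0.58 and -0.47 in the 3 comparisons with DMSO, against 0.0005, 0.0075 and 0.01 for all genes.

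Of 22 genes known to respond to glucocorticoids, 16 were tested, with 7 higher and 2 lower under abemaciclib, 8 and 3 under fulvestrant, and 10 and 4 in the combination. The shares called in either direction were 56.2%, 68.8% and 87.5%, beside 41.2%, 51.0% and 55.2% of all genes, and 7, 5 and 2 did not pass. TXNIP, a regulator of glucose uptake and redox state, rose from 128 ± 17.3 CPM to 375 ± 24.9 with abemaciclib (1.54 ± 0.11, adjusted p 1.44e-10) and to 754 ± 118 with fulvestrant (2.55 ± 0.11, adjusted p 1.59e-14). The circadian gene PER1 rose from 6.27 ± 0.232 to 12.7 ± 1.97 CPM with abemaciclib (1.03 ± 0.21, adjusted p 0.000242). Its change with fulvestrant was 0.95 ± 0.21 (adjusted p 0.000486). DUSP1, a phosphatase of MAP kinases, rose by 1.30 ± 0.35 with abemaciclib (adjusted p 0.0153), a call lost without DMSO replicate 1 (1.23, adjusted p 0.053) or DMSO replicate 2 (1.24, adjusted p 0.0559), and by 1.92 ± 0.34 with fulvestrant (adjusted p 0.00113). ZBTB16, a zinc finger factor, rose from 2.76 ± 0.91 to 10.5 ± 2.42 CPM with fulvestrant (1.96 ± 0.30, adjusted p 3.13e-06). The classical receptor targets FKBP5, which is also in the chaperone list, and TSC22D3 were singled out after their values were seen, and they went opposite ways. FKBP5 was 94.2 ± 4.09 CPM in DMSO, 72.2 ± 3.62 with abemaciclib (-0.39 ± 0.10, adjusted p 0.00212), 78.9 ± 2.02 with fulvestrant (-0.26 ± 0.10, adjusted p 0.0285) and 87.2 ± 11.4 in the combination (-0.11 ± 0.09, adjusted p 0.33). Its fulvestrant call was lost with no filter on low counts (adjusted p 0.0595) and on leaving out DMSO replicate 1 (adjusted p 0.0582), DMSO replicate 2 (adjusted p 0.114), or fulvestrant replicate 1 (adjusted p 0.0532), replicate 2 (adjusted p 0.0535) or replicate 3 (adjusted p 0.0547). TSC22D3, which encodes the leucine zipper protein GILZ, rose from 84.4 ± 16.2 CPM to 146 ± 4.25 with abemaciclib (0.78 ± 0.19, adjusted p 0.00684), 306 ± 66.1 with fulvestrant (1.84 ± 0.18, adjusted p 9.65e-06) and 314 ± 44.5 in the combination (1.89 ± 0.18, adjusted p 6.6e-06). TXNIP, DUSP1 and PER1 also answer to signals other than glucocorticoids.

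RARA encodes retinoic acid receptor alpha and lies on chromosome 17 (40309180 to 40357643, plus strand). Its DMSO libraries held 106, 135 and 127 CPM, and the abemaciclib libraries 188, 204 and 184 CPM. Fulvestrant libraries held 175, 235 and 142 CPM, a wide spread, and the combination 181, 205 and 161 CPM. No treated library fell within the DMSO range.

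RARA rose by a similar size with each treatment. The log2 changes against DMSO were 0.64 ± 0.16 with abemaciclib (SE, edgeR adjusted p 0.00819), 0.58 ± 0.16 with fulvestrant (adjusted p 0.0118) and 0.57 ± 0.16 in the combination (adjusted p 0.0113). Each passed in 18 of 18 alternatives. Without fulvestrant replicate 2, the highest library, the fulvestrant value was 0.36, which is over 1.5 times smaller. The treated groups did not differ from each other past the threshold: the 95% interval was -0.43 to 0.28 for the combination against abemaciclib and -0.36 to 0.34 for the combination against fulvestrant. The interaction was -0.65 ± 0.23 (adjusted p 0.0654). It missed the threshold here but passed with DESeq2 (-0.66, adjusted p 0.0124), with no filter on low counts (-0.66, adjusted p 3.61e-05), and without fulvestrant replicate 2 (-0.44, adjusted p 0.0409), fulvestrant replicate 3 (-0.81, adjusted p 0.00192) or combination replicate 2 (-0.76, adjusted p 0.043).

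RARG, retinoic acid receptor gamma (chromosome 12, 53210567 to 53232980, minus strand), was the receptor with the fewest reads among those tested. It stood at 24.6, 24.3 and 18.4 CPM in DMSO and 29.0, 28.0 and 34.4 CPM with abemaciclib. The fulvestrant libraries held 22.7, 22.0 and 28.3 CPM and the combination libraries 20.5, 25.2 and 22.9 CPM. Only the abemaciclib libraries lay clear of DMSO, and fulvestrant overlapped both.

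With abemaciclib, RARG was 0.44 ± 0.15 higher than in DMSO (adjusted p 0.0194). The call was lost without DMSO replicate 3 (0.32, adjusted p 0.128) or abemaciclib replicate 3 (0.35, adjusted p 0.101), its lowest control and highest treated library. RARG was lower in the combination than with abemaciclib (-0.41 ± 0.15, adjusted p 0.0352), which did not hold with DESeq2 (adjusted p 0.0627) or without abemaciclib replicate 1 (-0.44, adjusted p 0.0544), abemaciclib replicate 3 (-0.32, adjusted p 0.16), combination replicate 1 (-0.33, adjusted p 0.133) or combination replicate 3 (-0.41, adjusted p 0.0791). Against DMSO, RARG did not pass with fulvestrant (0.13, 95% interval -0.19 to 0.45) or the combination (0.04, 95% interval -0.28 to 0.35). RARA made up 84.4% ± 3.10 of the reads of RARA and RARG in DMSO and 86.3% ± 1.85 with abemaciclib (SD, n = 3), ranges that overlapped. RARB, the remaining family member and itself a retinoic acid target, was at 0 reads in every DMSO library.

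Genes that make, carry or degrade retinoids mostly had too few reads to test. Of 22 listed, 8 were tested, with 1 higher and 2 lower under abemaciclib, 2 and 3 under fulvestrant, and 1 and 3 in the combination. Those called made up 37.5%, 62.5% and 50%, against 41.2%, 51.0% and 55.2% of all genes. With at least 10 counts demanded in every library, 3 were called under fulvestrant in place of 5. CRABP1, a carrier of retinoic acid in the cytoplasm, averaged 469 ± 46.9 CPM in DMSO, 374 ± 18.2 with abemaciclib (-0.33 ± 0.09, adjusted p 0.00606) and 304 ± 47.7 with fulvestrant (-0.63 ± 0.09, adjusted p 3.19e-06). The retinal reductase RDH11 fell by 0.49 ± 0.09 with abemaciclib (adjusted p 0.000102) and by 0.75 ± 0.09 with fulvestrant (adjusted p 1.93e-07). CRABP2, which delivers retinoic acid to its nuclear receptor, fell by 0.38 ± 0.11 with fulvestrant (adjusted p 0.00419).

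Of 20 genes known to respond to retinoic acid, 8 were tested. Under abemaciclib 4 were higher and 1 lower, under fulvestrant 3 and 2, and in the combination 4 and 2. That is 62.5%, 62.5% and 75.0% called, where all genes gave 41.2%, 51.0% and 55.2%. The abemaciclib count was 3 in place of 5 without DMSO replicate 2. NEDD9, a scaffold of focal adhesions, rose from 11.1 ± 1.89 to 26.8 ± 4.27 CPM with abemaciclib (1.27 ± 0.17, adjusted p 6.24e-07) and to 19.7 ± 1.96 with fulvestrant (0.84 ± 0.18, adjusted p 0.000256). The transcription factor SOX9 rose by 0.62 ± 0.15 with abemaciclib (adjusted p 0.0013), and the epithelial factor ELF3 by 0.91 ± 0.12 with fulvestrant (adjusted p 2.01e-07). RET, a receptor tyrosine kinase that is also an ER target, fell by 1.05 ± 0.21 with fulvestrant (adjusted p 0.000145). Its abemaciclib value of -0.60 ± 0.20 (adjusted p 0.0159) did not pass without DMSO replicate 2 (-0.54, adjusted p 0.0714) or abemaciclib replicate 3 (-0.53, adjusted p 0.0626). CYP26A1, the retinoic acid hydroxylase that is the most direct readout of this pathway, had 0 reads in all 12 libraries.

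The RXR genes encode the partners shared by the retinoic acid, vitamin D and thyroid hormone receptors, and both were higher wherever fulvestrant was present. RXRA (chromosome 9, 134317098 to 134440585, plus strand) held 183, 185 and 178 CPM in the DMSO libraries and 197, 191 and 188 CPM with abemaciclib. It held 347, 318 and 369 CPM with fulvestrant, and 369, 353 and 366 CPM in the combination. The lowest fulvestrant library was far above the highest abemaciclib library.

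The log2 change of RXRA was 0.93 ± 0.08 with fulvestrant (SE, edgeR adjusted p 5.3e-11) and 1.00 ± 0.08 in the combination (adjusted p 8.08e-12), from a DMSO mean of 182 ± 3.71 CPM (SD, n = 3). Abemaciclib alone gave 0.08 ± 0.08 (adjusted p 0.441, 95% interval -0.08 to 0.23). Adding fulvestrant to abemaciclib raised RXRA by 0.92 ± 0.08 (adjusted p 1.51e-10), and the interaction was -0.0043 ± 0.11 (adjusted p 0.987, 95% interval -0.22 to 0.21). Against abemaciclib, 4 of 8 receptors were higher in the combination (NR3C1, RXRA, RXRB and THRA) and 2 lower (RARG and VDR), beside 15.9% higher and 17.7% lower among all genes. Fulvestrant against abemaciclib gave the same 4 higher and 1 lower (VDR), beside 13.4% and 15.5%.

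RXRB (chromosome 6, 33193588 to 33200665, minus strand) is a smaller gene of the same family. Its levels were 30.3, 38.8 and 39.9 CPM in DMSO and 35.0, 38.2 and 40.4 CPM with abemaciclib. Fulvestrant libraries held 42.0, 51.3 and 58.6 CPM, and combination libraries 65.2, 66.2 and 62.9 CPM. The fulvestrant libraries lay above all DMSO and abemaciclib libraries, and the combination libraries above all others.

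RXRB was 0.47 ± 0.13 higher with fulvestrant than in DMSO (adjusted p 0.00314) and 0.82 ± 0.12 higher in the combination (adjusted p 2.46e-06), whereas abemaciclib gave 0.04 ± 0.13 (adjusted p 0.816, 95% interval -0.22 to 0.31). The combination exceeded fulvestrant by 0.35 ± 0.12, which did not pass (adjusted p 0.175). Without fulvestrant replicate 3, the highest of its group, the difference was 0.48 (adjusted p 0.0167). Over all libraries, 0 of the 8 receptors were higher and 0 lower in the combination than with fulvestrant, beside 0.297% and 1.63% of all genes. RXRB was the receptor with the smallest unadjusted p in that comparison, and 1 of 8 had an unadjusted p under 0.05, while DESeq2 also called 0. Fulvestrant against abemaciclib was 0.42 ± 0.13 (adjusted p 0.0124), a call lost without abemaciclib replicate 1 (0.37, adjusted p 0.0711) or fulvestrant replicate 3 (0.30, adjusted p 0.0863). RXRB shares 361 exonic bases with SLC39A7 on the opposite strand, at 6717 bases from the 3′ end of RXRB.

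Promoter sequence is shown for the 3 receptors that were higher with fulvestrant, RARA, RXRA and RXRB. RefSeq windows (GRCh38.p14, 250 bases before to 50 after a start site) were found for 7 of the 9 genes, 18 windows in all, and none was found for VDR or NR2F6. For RARA the window with the half-site was chosen, and for the RXR genes the window with the most Sp1 boxes. The 250 bases before that start site are printed 5′ to 3′ on the strand of the gene, with the nuclear receptor half-site AGGTCA and the Sp1 box GGGCGG in capitals. G and C made up 56.4% of the printed RARA stretch, 89.2% of that of RXRA and 61.6% of that of RXRB. The unprinted windows of the same genes differed from these, with 63.6% and 70.4% in RARA, 64.4% in RXRA and 53.6% in RXRB.
RARA (chr17:40308930-40309179, plus strand): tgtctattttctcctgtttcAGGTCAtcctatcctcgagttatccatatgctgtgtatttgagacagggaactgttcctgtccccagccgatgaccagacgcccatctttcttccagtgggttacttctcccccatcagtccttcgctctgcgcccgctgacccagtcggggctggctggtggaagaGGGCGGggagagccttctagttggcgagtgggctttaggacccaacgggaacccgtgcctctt
RXRA (chr9:134326205-134326454, plus strand): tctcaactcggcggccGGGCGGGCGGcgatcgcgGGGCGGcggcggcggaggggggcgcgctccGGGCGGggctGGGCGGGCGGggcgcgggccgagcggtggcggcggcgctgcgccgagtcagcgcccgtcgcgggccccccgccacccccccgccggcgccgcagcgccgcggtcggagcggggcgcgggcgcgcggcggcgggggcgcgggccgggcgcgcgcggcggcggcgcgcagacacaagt
RXRB (chr6:33200666-33200915, minus strand): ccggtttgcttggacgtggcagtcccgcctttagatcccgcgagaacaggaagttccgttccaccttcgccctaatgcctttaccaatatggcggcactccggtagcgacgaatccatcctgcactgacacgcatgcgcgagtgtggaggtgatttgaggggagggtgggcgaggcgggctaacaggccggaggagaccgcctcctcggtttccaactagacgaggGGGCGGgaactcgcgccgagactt

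The letters AGGTCA, searched on both strands, occurred in 1 window of these receptors, that of RARA printed above at position -230 from the start. Among 35116 RefSeq windows 13.8% held them. GGGCGG, also searched on both strands, occurred once in the printed RARA and RXRB stretches and 6 times in that of RXRA, where some copies overlap. Counted by whole windows of 300 bases, it was present in 3 of 3 for RARA, 2 of 2 for RXRA and 1 of 2 for RXRB. Among all windows 45.0% held it. The stretches not printed held 5 and 3 copies in RARA, 1 in RXRA and 0 in RXRB. The fuller motifs, the oestrogen response element (0.057% of windows), the retinoid direct repeat with a spacer of 5 bases (0.0057%) and the E2F sites TTTCGCGC or TTTGGCGC (1.15%) were not in any of the 18 windows, searched on both strands, which says only that these motifs are absent there.

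VDR, the vitamin D receptor (chromosome 12, 47841537 to 47943048, minus strand), moved against the RXR genes. Its DMSO libraries held 60.6, 56.3 and 63.0 CPM and its abemaciclib libraries 60.0, 61.8 and 61.7 CPM. With fulvestrant it was 33.1, 39.5 and 32.4 CPM, and in the combination 35.1, 30.8 and 38.6 CPM. Libraries with and without fulvestrant did not overlap, and within each of these sets the groups did.

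Fulvestrant lowered VDR from 59.9 ± 3.44 to 35.0 ± 3.92 CPM (SD, n = 3), a log2 change of -0.78 ± 0.12 (SE, edgeR adjusted p 2.25e-06), and the combination gave -0.78 ± 0.11 (adjusted p 1.45e-06). Both passed in 18 of 18 alternatives. With abemaciclib alone the value was 0.03 ± 0.11 (adjusted p 0.849, 95% interval -0.19 to 0.25), and on top of fulvestrant it was 0.0012 ± 0.12 (95% interval -0.25 to 0.25). The interaction was -0.03 ± 0.16 (adjusted p 0.923).

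The vitamin D axis itself, here genes of its metabolism and transport and targets of its receptor, was hardly represented. Of 14 genes listed, 5 were tested, with 2 higher and 0 lower under abemaciclib, 3 and 0 under fulvestrant, and 4 and 0 in the combination. These are 40.0%, 60.0% and 80.0% of the tested genes, beside 41.2%, 51.0% and 55.2% called among all genes. Higher genes alone made up 20.5%, 25.3% and 27.7% of all genes. With at least 10 counts demanded in every library these counts were 0, 1 and 2, and fitting only the groups compared gave 0 under abemaciclib and 1 under fulvestrant. No listed gene was lower at an unadjusted p under 0.05 in any of the 3 comparisons, or with DESeq2, and no gene of the list met the rule for naming. CYP24A1, the hydroxylase whose induction is the usual readout of an active vitamin D receptor, had 0 reads in all 12 libraries.

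The balance between the RXR genes and the partners RARA, RARG, VDR and THRA shifted with these changes. Other partners, among them PPARA and PPARD, were not counted in these shares. Within each library, RXRA and RXRB made up 42.4%, 40.1% and 39.8% of the reads of RXRA, RXRB, RARA, RARG, VDR and THRA in DMSO, and 38.2%, 36.8% and 38.5% with abemaciclib. In the fulvestrant libraries the share was 52.7%, 47.2% and 58.0%, and in the combination 54.5%, 52.4% and 56.3%. All libraries with fulvestrant lay above all libraries without it. VDR made up 19.0% ± 2.01 of the reads of RARA, RARG, VDR and THRA in DMSO, 16.2% ± 0.593 with abemaciclib, 9.82% ± 0.529 with fulvestrant and 9.79% ± 1.75 in the combination (SD, n = 3). These shares compare 3′ read numbers, not protein, and no test was made on them.

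**Figure D4:**
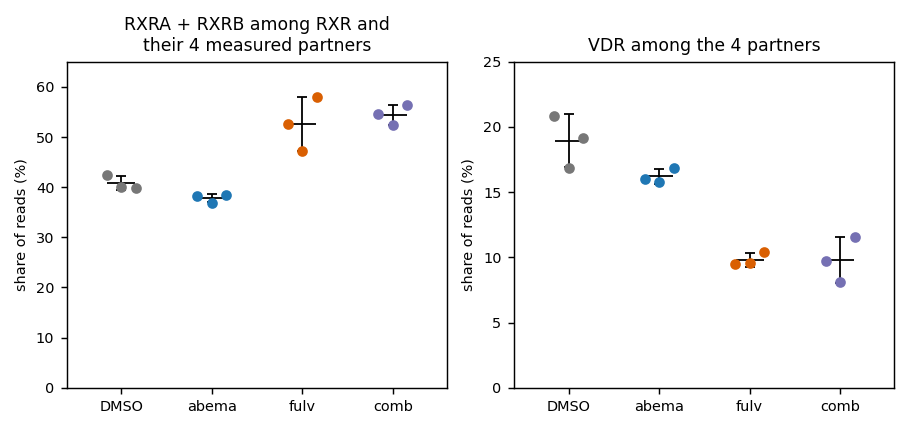
Share of reads in percent (vertical axes, starting at 0) within each library by group. Left, RXRA and RXRB among the reads of RXRA, RXRB and 4 partner receptors; right, VDR among the 4 partners. Points are libraries and bars the mean ± SD of 3. The RXR share is 36.8% to 42.4% without fulvestrant and 47.2% to 58.0% with it, and the VDR share is lower in both groups with fulvestrant.

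THRA encodes thyroid hormone receptor alpha (chromosome 17, 40058290 to 40093867, plus strand). Its levels were 98.8, 118 and 122 CPM in DMSO and 98.0, 98.7 and 85.2 CPM with abemaciclib. Fulvestrant libraries held 119, 116 and 108 CPM, and combination libraries 126, 120 and 111 CPM. The highest abemaciclib library lay just under the lowest DMSO library.

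THRA was -0.27 ± 0.09 with abemaciclib against DMSO (SE, edgeR adjusted p 0.0243). The call was lost with no filter on low counts (adjusted p 0.0542) and without DMSO replicate 2 (-0.23, adjusted p 0.0996), DMSO replicate 3 (-0.20, adjusted p 0.132) or abemaciclib replicate 3 (-0.20, adjusted p 0.141). Fulvestrant gave 0.01 ± 0.09 (95% interval -0.18 to 0.20) and the combination 0.07 ± 0.09 (95% interval -0.12 to 0.26). The combination was 0.34 ± 0.09 above abemaciclib (adjusted p 0.0061), and 0.27 (adjusted p 0.0557) without abemaciclib replicate 3. Fulvestrant was 0.28 ± 0.09 above abemaciclib (adjusted p 0.0264), which did not pass without abemaciclib replicate 3 (0.21, adjusted p 0.156), fulvestrant replicate 1 (0.26, adjusted p 0.0887) or fulvestrant replicate 2 (0.27, adjusted p 0.057). THRA shares 473 exonic bases with NR1D1, which runs on the opposite strand, beginning 585 bases from the THRA 3′ end. The sources do not say if strand was used in counting, and without it reads from the shared bases cannot be told apart. NR1D1, a circadian repressor, had 352 reads over the 12 libraries against 5854 for THRA, and averaged 4.12, 2.75, 9.52 and 10.4 CPM in DMSO, abemaciclib, fulvestrant and the combination.

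Of 13 genes of the thyroid hormone axis, 7 were tested, with 5 higher and 1 lower under abemaciclib and 5 higher and 2 lower under both fulvestrant and the combination. Called genes made up 85.7%, 100% and 100% of those tested, beside 41.2%, 51.0% and 55.2% of all genes. CRYM, which binds thyroid hormone in the cytosol, rose by 1.01 ± 0.16 with abemaciclib (adjusted p 1.09e-05) and by 1.57 ± 0.15 with fulvestrant (adjusted p 2.08e-09). HR, a corepressor of the thyroid hormone and vitamin D receptors, went in opposite directions, from 27.2 ± 4.96 to 54.5 ± 4.40 CPM with abemaciclib (0.99 ± 0.14, adjusted p 2.35e-06) and to 10.2 ± 0.720 CPM with fulvestrant (-1.42 ± 0.18, adjusted p 1.49e-07).

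The orphan receptor NR2F6 (chromosome 19, 17231883 to 17245919, minus strand) had the smallest spread of group means among the 8 receptors of the set that were tested. It was at 142, 151 and 152 CPM in DMSO and 131, 138 and 122 CPM with abemaciclib. With fulvestrant it was at 137, 135 and 121 CPM, and in the combination at 121, 114 and 123.5 CPM. Every treated library lay below every DMSO library, and the treated groups overlapped.

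Only the combination passed for NR2F6, at -0.31 ± 0.08 (adjusted p 0.00227), in 18 of 18 alternatives. Abemaciclib gave -0.19 ± 0.08 (adjusted p 0.0695), or -0.19 (adjusted p 0.0436) without fulvestrant replicate 3, and fulvestrant -0.18 ± 0.08 (adjusted p 0.0742). The difference between the combination and either drug did not pass (-0.12, adjusted p 0.267, and -0.13, adjusted p 0.586). The interaction was 0.05 ± 0.12 (adjusted p 0.782).

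NR2F2, or COUP-TFII (chromosome 15, 96325938 to 96340263, plus strand), had 1 read in abemaciclib replicate 1 and 0 in each of the other 11 libraries. A count of 0 allows up to 0.57 to 0.89 CPM at these depths, for counting error only. No change could be sought at that level.

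The summed level of the 9 genes was 771 ± 29.9 CPM in DMSO, 780 ± 18.2 with abemaciclib, 957 ± 25.5 with fulvestrant and 979 ± 23.9 in the combination (SD, n = 3). Between the mean of the highest and of the lowest group, log2 levels spanned 1.01 for NR3C1, 1.00 for RXRA, 0.84 for RXRB, 0.81 for VDR, 0.65 for RARA, 0.44 for RARG, 0.34 for THRA and 0.31 for NR2F6. The group apart from the rest was abemaciclib for NR3C1, whereas RXRA, RXRB and VDR separated the groups with fulvestrant from those without.

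The genes with the most similar pattern were sought for the 5 receptors that spanned at least 0.5, as the smallest root mean square difference in log2 CPM from the DMSO mean over 12 libraries, among 8471 genes. For RXRA they were MARCHF6 (0.061), TAOK3 (0.082) and SOWAHC (0.10), where the median gene differed by 0.72. For VDR they were DCAF13 (0.10), PITX1 (0.11) and RPS9 (0.11), with a median of 0.65. NR3C1 was closest to CTCF (0.14), N4BP2 (0.14) and DPM3 (0.16), with a median of 0.65. RARA was closest to KYNU (0.10), LMNA (0.10) and SDF2 (0.12), with a median of 0.61, and RXRB to SH3YL1 (0.14), KANSL3 (0.15) and VGLL4 (0.15), with a median of 0.58. CTCF, which encodes a chromatin insulator protein, averaged 231, 126, 195 and 202 CPM in DMSO, abemaciclib, fulvestrant and the combination. All genes compared share the same libraries and depths.

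The other nuclear receptor genes, 37 without ER and PR, were mostly silent, with 21 at no more than 3 counts in every library. Of the 15 tested, 3 were higher and 2 lower under abemaciclib, 7 and 0 under fulvestrant, and 6 and 0 in the combination. The shares called in either direction, 33.3%, 46.7% and 40.0%, lay below the 41.2%, 51.0% and 55.2% of all genes. By direction the pattern was one-sided where fulvestrant was present. Higher genes made up 46.7% under fulvestrant and 40.0% in the combination, above the 25.3% and 27.7% of all genes. Lower genes numbered 0 in both, beside 25.7% and 27.5% of all genes. Under abemaciclib the share in each direction lay below that of all genes (20.5% higher and 20.7% lower). Lower genes at an unadjusted p under 0.05 numbered 1 under fulvestrant and 0 in the combination, and DESeq2 called 0 in both. Leaving out DMSO replicate 3 or abemaciclib replicate 1 gave 2 calls under abemaciclib in place of 5. NR4A1, an orphan receptor encoded by an immediate early gene, and NR1D1 had the largest changes of these with fulvestrant, 1.25 ± 0.32 (adjusted p 0.00157) and 1.17 ± 0.28 (adjusted p 0.000844), at means under 10 CPM in both groups compared (3.85 and 9.20 CPM for NR4A1). The fatty acid sensors PPARD and PPARA were 1.09 ± 0.24 (adjusted p 0.000402) and 1.01 ± 0.23 (adjusted p 0.000699) higher with fulvestrant, and both pair with RXR. With abemaciclib, the circadian receptor RORA was 0.45 ± 0.15 (adjusted p 0.0183), lost with DESeq2 (adjusted p 0.0502), without DMSO replicate 3 (0.37, adjusted p 0.0854) and without abemaciclib replicate 1 (0.39, adjusted p 0.0768). The orphan receptor NR2C2 was -0.54 ± 0.18 (adjusted p 0.0202), lost without DMSO replicate 3 (-0.50, adjusted p 0.0664) or abemaciclib replicate 3 (-0.47, adjusted p 0.0794). The circadian repressor NR1D2 was -0.48 ± 0.14 (adjusted p 0.00855), lost without abemaciclib replicate 1 (-0.36, adjusted p 0.0756). With fulvestrant RORA was 0.86 ± 0.15 (adjusted p 1.72e-05), NR1D2 0.61 ± 0.13 (adjusted p 0.00031) and NR2C2 0.05 ± 0.18 (adjusted p 0.825).

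**Figure D5:**
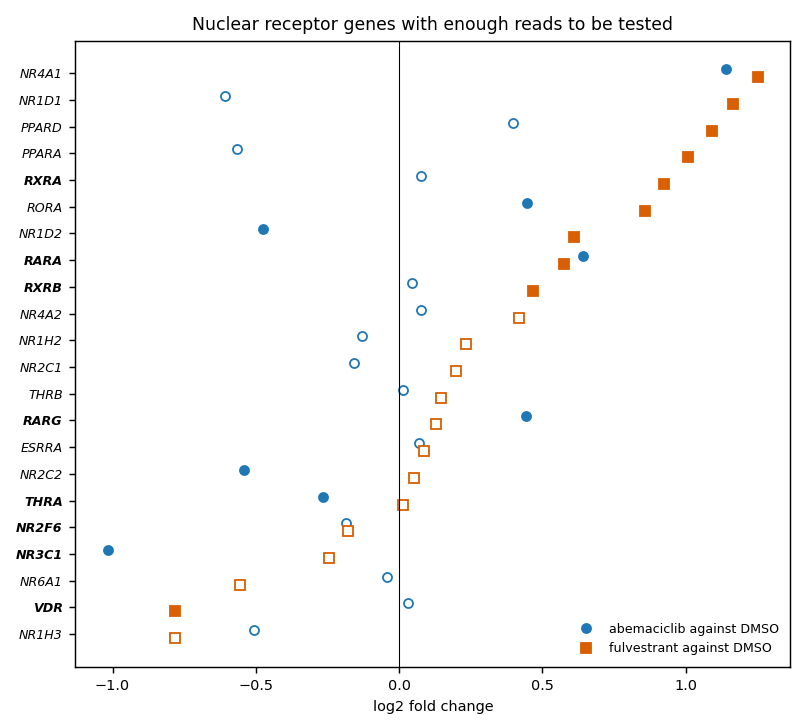
Log2 fold change against DMSO (horizontal axis) of 22 of the 23 tested nuclear receptor genes other than ER and PR under abemaciclib (circles) and fulvestrant (squares), ordered by the fulvestrant value. Filled symbols passed an adjusted p of 0.05 and bold names are the 8 receptors described in detail. NR4A1 (1.25), NR1D1 (1.17), PPARD (1.09), PPARA (1.01) and RXRA (0.93) lie farthest to the right under fulvestrant, with VDR (-0.78) among the lowest.

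Of the coregulators, the proteins through which nuclear receptors act on chromatin, 30 were tested, with 4 higher and 9 lower under abemaciclib, 9 and 8 under fulvestrant, and 8 and 11 in the combination. The shares called, 43.3%, 56.7% and 63.3%, were near those of all genes (41.2%, 51.0% and 55.2%). CITED2, a binder of the CBP and p300 acetyltransferases, rose from 16.2 ± 6.27 CPM to 40.9 ± 4.01 with abemaciclib (1.29 ± 0.31, adjusted p 0.00733) and to 63.7 ± 18.6 with fulvestrant (1.92 ± 0.30, adjusted p 0.00036). TRIM24, a cofactor of the retinoic acid receptors, rose by 1.40 ± 0.09 with fulvestrant (adjusted p 1.06e-13) and by 0.54 ± 0.09 with abemaciclib (adjusted p 1.13e-05). TBL1X, a subunit of the NCOR corepressor complex, fell by 0.78 ± 0.09 with abemaciclib (adjusted p 1.31e-07) and by 0.76 ± 0.09 with fulvestrant (adjusted p 1.31e-07). NCOA7, a coactivator that binds ER, fell by 1.60 ± 0.28 with fulvestrant (adjusted p 3.38e-05). Its abemaciclib value of -0.75 ± 0.25 (adjusted p 0.0171) did not pass without DMSO replicate 1 (-0.51, adjusted p 0.12) or abemaciclib replicate 3 (-0.61, adjusted p 0.0846).

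Of the 10 luminal markers, all tested, 4 were higher and 1 lower with abemaciclib, 6 and 0 with fulvestrant, and 3 and 2 in the combination. All genes gave 41.2%, 51.0% and 55.2% called in either direction, near the 50%, 60.0% and 50% of these markers. By direction, 20.5%, 25.3% and 27.7% of all genes were higher and 20.7%, 25.7% and 27.5% lower. Under fulvestrant the 60.0% of markers called were all higher, above the 25.3% of all genes. Under fulvestrant 0 were lower at an unadjusted p under 0.05, and DESeq2 called 4 higher and 0 lower. With abemaciclib KRT19 rose by 0.81 ± 0.07 (adjusted p 4.16e-10), XBP1 by 0.57 ± 0.07 (adjusted p 1.59e-07) and KRT8 by 0.50 ± 0.11 (adjusted p 0.00113). Fulvestrant raised EPCAM by 0.75 ± 0.08 (adjusted p 2.43e-08), FOXA1 by 0.54 ± 0.09 (adjusted p 1.77e-05) and the keratin gene KRT19 by 0.53 ± 0.07 (adjusted p 4.63e-07). Most markers of other cell types (basal, fibroblast, endothelial, immune and fat) were near absent. Of 16, 11 had no more than 3 counts in any library and 5 were at 0 throughout, among them PECAM1, CD3E and CD68. Their summed level was 18.7 to 22.0 CPM in DMSO, 41.4 to 43.5 with abemaciclib, 40.1 to 44.9 with fulvestrant and 35.4 to 39.5 in the combination. Only ACTA2 and COL1A1 were tested. They averaged 2.42 and 16.1 CPM in DMSO, 16.8 and 22.3 with abemaciclib, and 15.8 and 22.75 with fulvestrant. The smooth muscle actin gene ACTA2 rose by 2.85 ± 0.24 with abemaciclib (adjusted p 2.76e-10) and 2.76 ± 0.25 with fulvestrant (adjusted p 3.55e-10). COL1A1 was 0.45 ± 0.17 (adjusted p 0.0313) and 0.48 ± 0.17 (adjusted p 0.0194), and was called in neither comparison without DMSO replicate 1 (0.39 and 0.42) or DMSO replicate 3 (0.43 and 0.46). Under abemaciclib it was also lost with DESeq2 (0.45, adjusted p 0.0632). Further losses were without abemaciclib replicate 2 (0.45, adjusted p 0.0744), abemaciclib replicate 3 (0.36, adjusted p 0.134) and fulvestrant replicate 2 (0.38, adjusted p 0.0917) in the comparison that used each. Both were called with abemaciclib and with fulvestrant, and 1 in the combination.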

How the data were processed

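3′ RNA-seq libraries (QuantSeq FWD) of CAMA-1 cells were analysed, 3 per group, grouped by their treatment labels. The deposited table holds raw counts, made by the authors and listed by gene symbol. By the study's methods, reads were trimmed, aligned to hg38 with STAR and counted with featureCounts 2.0.1 on GENCODE annotation. Use of strand in counting is not given in the sources used here. No molecular identifiers are named, so floors (3 counts) cover counting error only.

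Of 60656 rows, the 44 with no name carried 0 reads and were left out, and 76 repeated names (1079 rows, 0.016% of reads) were kept apart. The filter filterByExpr of edgeR 4.0.16 (R 4.3.3, limma 3.58.1), set to a minimum count of 10 and a minimum total of 15, left 11803 genes. All 12 libraries entered a quasi-likelihood model with 4 group means, TMM factors, robust dispersions and no covariate (common biological coefficient of variation 0.0918). Tests covered 6 pairwise comparisons and the interaction, with Benjamini-Hochberg adjustment over all genes and a threshold of 0.05. Standard errors came from the F statistic. With 3 libraries against 3 an exact permutation test cannot give a two-sided p below 0.1, so the model across all genes was used. Libraries ranged from 3299119 to 5164667 counts.

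The 9 receptors were given by name. They and the gene lists were chosen with earlier results of these data known. Genes were named from a list if they had the up to 3 largest changes past the threshold under abemaciclib or under fulvestrant, at least 10 CPM in a group and no overlap between libraries. NR1D1, which lies opposite THRA, and ESR1, PGR, MKI67 and TFF1, as checks of the treatments, were named whatever their values. FKBP5, TSC22D3, NR4A1, HSP90AB1, HSPA8, HSPA1A, BAG1 and genes at or near 0 were named after their values were seen. Some genes this rule selects are not reported here. GENCODE v44 (GRCh38, the build of the alignment) gave the coordinates. Alternatives were DESeq2 1.42.0 (the study's own tool), upper-quartile factors, no filter, at least 10 counts in every library, only the groups compared, the replicate number as a block, and leaving out each library. On simulated counts, 152 of 192 genes changed 2-fold were recovered with 6 false calls for abemaciclib against DMSO (11377 genes tested). For the interaction 113 of 191 were recovered with 8 false calls (11391 tested). The simulation changed few genes, evenly up and down and all by 2-fold. In the data far more genes were called and many changes were smaller, so these rates need not hold there.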

Additional observations from a re-analysis of the deposited data

Results flagged for a closer look

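The response of NR3C1 to abemaciclib differed between cells without and with fulvestrant by a test of the difference itself. The interaction was 1.00 ± 0.15 on the log2 scale (SE, edgeR adjusted p 2.91e-05), from a change of -1.02 without fulvestrant, lower in 3 of 3 libraries, to -0.01 with it, where the libraries overlapped. With each library left out in turn, or under another setting, the value lay between 0.91 and 1.11.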

How the results depend on the processing

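Of 1000 values of the 8 receptors under the alternatives, 925 kept their direction and side of the threshold, 26 lost a call, 11 gained one and 38 changed sign. No value that had passed the threshold changed sign. The receptors called under abemaciclib against DMSO ranged from 2 to 5 over the libraries left out, around 4, with 2 without DMSO replicate 3 or abemaciclib replicate 3. For the combination against fulvestrant the range was 0 to 1, with 1 without fulvestrant replicate 3, and for the interaction 1 to 2, with 2 without DMSO replicate 1, fulvestrant replicate 2, fulvestrant replicate 3 or combination replicate 2. The interaction count was also 2 with DESeq2 and with no filter on low counts. The cause of these shifts was not tested.

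With the replicate number as a block, the interaction count was 2, RARA being added (-0.64, adjusted p 0.00281), and the combination against DMSO gave 5 receptors in place of 6, NR3C1 being lost (adjusted p 0.0528). The replicate block changed no other receptor call. The numbers did not pair the libraries: deviations of same-numbered libraries correlated from -0.21 to 0.12, with 2 of 18 pairs over 0.1, and those of other pairs from -0.21 to 0.30.

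The count of 227 genes called for the combination against fulvestrant became 91 with at least 10 counts in every library, 125 with only the groups compared, 588 without fulvestrant replicate 3 and 146 without combination replicate 3.

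Signs turned only for values near 0. VDR in the combination against fulvestrant was -0.0084 with DESeq2, -0.0061 with only the groups compared and -0.0008 with the replicate block. RARA in that comparison was 0.0009 with the replicate block, and NR2F6 in fulvestrant against abemaciclib was -0.0033 with no filter. Leaving out single libraries gave ranges across 0 for the combination against fulvestrant in NR3C1 (-0.11 to 0.10), RARA (-0.17 to 0.20), RARG (-0.17 to 0.035) and VDR (-0.091 to 0.092), for fulvestrant against abemaciclib in NR2F6 (-0.037 to 0.063) and RARA (-0.28 to 0.092), for the combination against abemaciclib in RARA (-0.17 to 0.0057), for the combination against DMSO in RARG (-0.088 to 0.11) and THRA (-0.012 to 0.13), for abemaciclib against DMSO in RXRB (-0.057 to 0.12) and VDR (-0.017 to 0.076), for fulvestrant against DMSO in THRA (-0.064 to 0.080), and for the interaction in NR2F6 (-0.0002 to 0.10), RXRA (-0.060 to 0.048) and VDR (-0.13 to 0.061). The interaction of THRA passed without DMSO replicate 1 (0.40, adjusted p 0.03), and RARG in fulvestrant against abemaciclib passed without fulvestrant replicate 3 (-0.44, adjusted p 0.0415).

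Of 1023 values of the genes named from the lists, 997 stayed on their side of the threshold and 0 changed sign. HSP90AB1, HSPA8, HSPA1A and BAG1 were not among these genes. Of 710 list counts under the alternatives, 62 moved by more than 1.5 times. At this depth no comparison was possible for NR2F2.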
